A study of Homo sapiens with 8 samples.

Results

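The stretch of human chromosome 13 from 95000001 to 100000000 (genome build hg38) held more accessible regions in wild-type U2OS cells than in ASH1L-/- cells. It was selected on this genotype contrast, so every difference between wild type (WT) and ASH1L-/- below is a description with no test, and only the UV contrasts were tested. U2OS is a human osteosarcoma line. ASH1L is a histone methyltransferase that marks lysines of histone H3 in chromatin. The 8 ATAC-seq libraries came from WT cells and from cells in which CRISPR/Cas9 had disrupted ASH1L, each either unchallenged or exposed to 20 J/m2 of UV-C and left for 3 h, with 2 biological replicates in each of the 4 groups. Before the assay, all cells were treated with DNase to remove DNA from dead or damaged cells. Knockout cells were grown up from isolated colonies, so genotype and clone cannot be told apart. After the regions of all 8 lists were joined where they overlapped or touched, the block contained 330 of 547779 sites (0.0602%), and none crossed its borders.

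In ATAC-seq the transposase Tn5 inserts sequencing adapters where DNA is not covered by nucleosomes. Promoters of active genes and enhancers bound by transcription factors are therefore found as peaks of read pileup. The number of reads at a site depends on how open it is and also on how much DNA of that site the cells carry, and peak lists contain no separate measure of DNA content. A peak caller reports a region only where the pileup stands out from its background, so a modest fall in pileup can remove a weak region from a list and leave a strong one in place. The block contains 22 protein-coding genes, among them the transporter ABCC4, the splicing regulator MBNL2, the small GTPase RAP2A, the nuclear import receptor IPO5 and the transcription factors ZIC2 and ZIC5.

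The sequences of the leading sites are shown because they give the kind of DNA that was found in WT lists alone or in every list. Each run is 151 bases of the hg38 plus strand around the summit. Capitals mark matches on either strand to TGANTCA (the AP-1 motif), GGAATG (TEAD) or TGTGGT (RUNX), and a match is a description, not a bound site. The first 5 are the sites with a region in all 4 WT libraries and in no ASH1L-/- library that ranked highest within the WT lists.
chr13:99614480-99614630, intron of CLYBL: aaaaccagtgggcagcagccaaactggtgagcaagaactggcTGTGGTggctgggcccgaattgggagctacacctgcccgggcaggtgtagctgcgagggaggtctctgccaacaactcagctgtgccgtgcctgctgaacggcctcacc
chr13:99992974-99993124, intergenic, nearest start site ZIC2: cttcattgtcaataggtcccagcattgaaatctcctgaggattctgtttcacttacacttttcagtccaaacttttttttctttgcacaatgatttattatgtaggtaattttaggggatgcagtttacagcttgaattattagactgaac
chr13:98673058-98673208, intergenic, nearest start site SLC15A1: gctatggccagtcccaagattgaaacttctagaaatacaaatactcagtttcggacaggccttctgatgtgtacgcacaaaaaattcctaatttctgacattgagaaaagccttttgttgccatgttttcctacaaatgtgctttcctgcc
chr13:98033485-98033635, intergenic, nearest start site IPO5: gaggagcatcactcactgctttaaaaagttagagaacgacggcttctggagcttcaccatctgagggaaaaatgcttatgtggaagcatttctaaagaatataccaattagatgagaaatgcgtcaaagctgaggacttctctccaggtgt
chr13:99626737-99626887, intron of CLYBL: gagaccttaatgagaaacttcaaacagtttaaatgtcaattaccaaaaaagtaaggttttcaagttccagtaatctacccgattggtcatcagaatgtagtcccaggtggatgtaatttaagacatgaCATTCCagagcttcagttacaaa
The 3 sites that ranked highest over all 8 lists follow.
chr13:95256234-95256384, intron of ABCC4: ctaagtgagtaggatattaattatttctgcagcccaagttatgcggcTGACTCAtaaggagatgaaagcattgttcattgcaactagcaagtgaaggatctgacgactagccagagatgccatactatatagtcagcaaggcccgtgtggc
chr13:97433250-97433400, promoter of RAP2A: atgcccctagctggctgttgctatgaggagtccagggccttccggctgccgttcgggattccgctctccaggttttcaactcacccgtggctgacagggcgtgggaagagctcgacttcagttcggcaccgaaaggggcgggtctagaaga
chr13:98484932-98485082, intron of STK24: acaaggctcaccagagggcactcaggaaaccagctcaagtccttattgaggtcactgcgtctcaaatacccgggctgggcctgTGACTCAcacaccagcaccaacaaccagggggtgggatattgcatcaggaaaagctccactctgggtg
Of the 8 windows shown, 2 contained an AP-1 match, in introns of ABCC4 and STK24, and both were sites of all 8 libraries. In windows of 201 bases around the summit, an AP-1 match occurred at 15 of the 41 block sites found in all 8 libraries (36.6%), beside 23.2% of such sites genome-wide. It occurred at 1 of the 13 sites found in all WT and no ASH1L-/- libraries, and at 20.7% of the 421 such sites genome-wide. Over all block sites the shares for AP-1, TEAD and RUNX were 17.6%, 10.9% and 17.9%, beside 11.1%, 13.2% and 16.3% of all sites.

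The number of accessible regions separated the genotypes without overlap. WT libraries had 162 and 194 regions in the block without UV and 168 and 205 after UV. ASH1L-/- libraries had 55 and 63 without UV and 103 and 112 after UV. Every WT library was therefore above every ASH1L-/- library, and the unchallenged ASH1L-/- cells were lowest. As a share of all chromosome 13 regions of the same list, the block took 6.20%, 6.18%, 6.47% and 6.08% in WT, and 1.80%, 2.55%, 3.72% and 3.30% in ASH1L-/- cells. The WT shares lay close together, whereas those of ASH1L-/- cells spread over a wider range. On the log2 scale, block regions relative to the rest of chromosome 13 averaged −3.91 ± 0.0404 (SD, n = 4) in WT and −5.15 ± 0.476 (SD, n = 4) in ASH1L-/- cells, a difference of 1.24 or 2.36-fold. The genome-wide mean pileup, which measures relative depth, was 1.74 to 2.67 in WT and 1.39 to 5.87 in ASH1L-/- libraries. The library at 5.87 had 55 block regions and the one at 1.39 had 63. The part of depth in the difference was not tested. Total list lengths overlapped, with 161647 to 189651 regions in WT and 158198 to 220783 in ASH1L-/- cells.

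**Figure D1:**
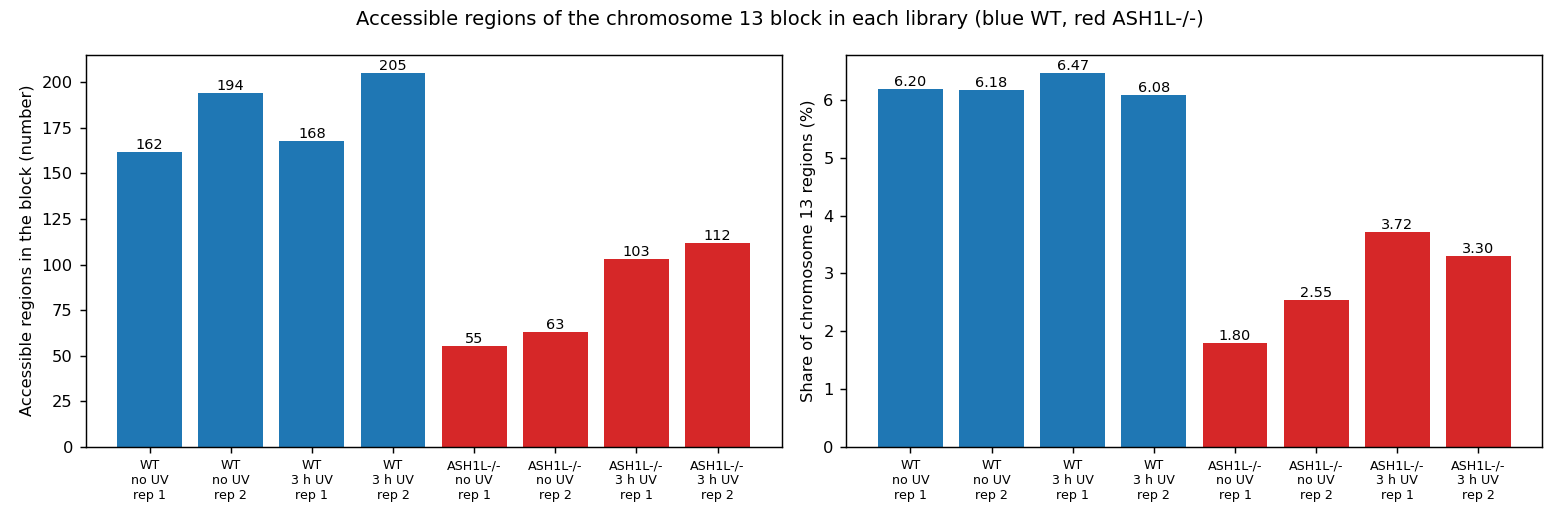
The left bars give the number of accessible regions of the block and the right bars their share of all chromosome 13 regions in percent, 1 bar per library, with WT in blue and ASH1L-/- in red. All 4 WT bars, between 162 and 205 regions, stand above all 4 ASH1L-/- bars, between 55 and 112.

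Site by site, the presence of a region leaned to WT nearly throughout. More WT than ASH1L-/- libraries had a region at 259 of the 330 sites (78.5%), beside 36.3% on the rest of chromosome 13. The adjoining 5 Mb windows were close to the block, with 74.1% before it and 76.1% after it. The opposite was seen at 16 sites (4.85%), beside 41.5% on the rest of the chromosome. A region in at least 1 WT library and in no ASH1L-/- library was present at 197 sites (59.7%), of which 145 rested on a single library. This pattern was found at 31.3% of all sites, and at 57.5% and 54.5% in the windows before and after the block. Only 9 sites (2.73%) had the reverse pattern, beside 36.1% of all sites and 7.02% and 4.31% in these windows. All 4 WT and no ASH1L-/- libraries had a region at 13 sites (3.94%). This pattern was found at 0.0769% of all sites, at 0.222% of the 7208 sites on the rest of chromosome 13, and at 3 sites each in the adjoining 5 Mb windows. The block thus contained 44.8% of the 29 such sites on chromosome 13, with 4.38% of the sites of that chromosome. The count depended on the limit for a region, with 7 sites at a q-value under 0.05 and 2 where regions had to cover 50% of the site. It rose to 22 without replicate 1 of unchallenged WT cells and to 20 without replicate 2 of ASH1L-/- cells after UV. No block site was found in all ASH1L-/- and no WT libraries, a pattern of 0.187% of all sites. Sites with a region in all 8 libraries numbered 41 (12.4%), close to the 11.01% of all sites.

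**Figure D2:**
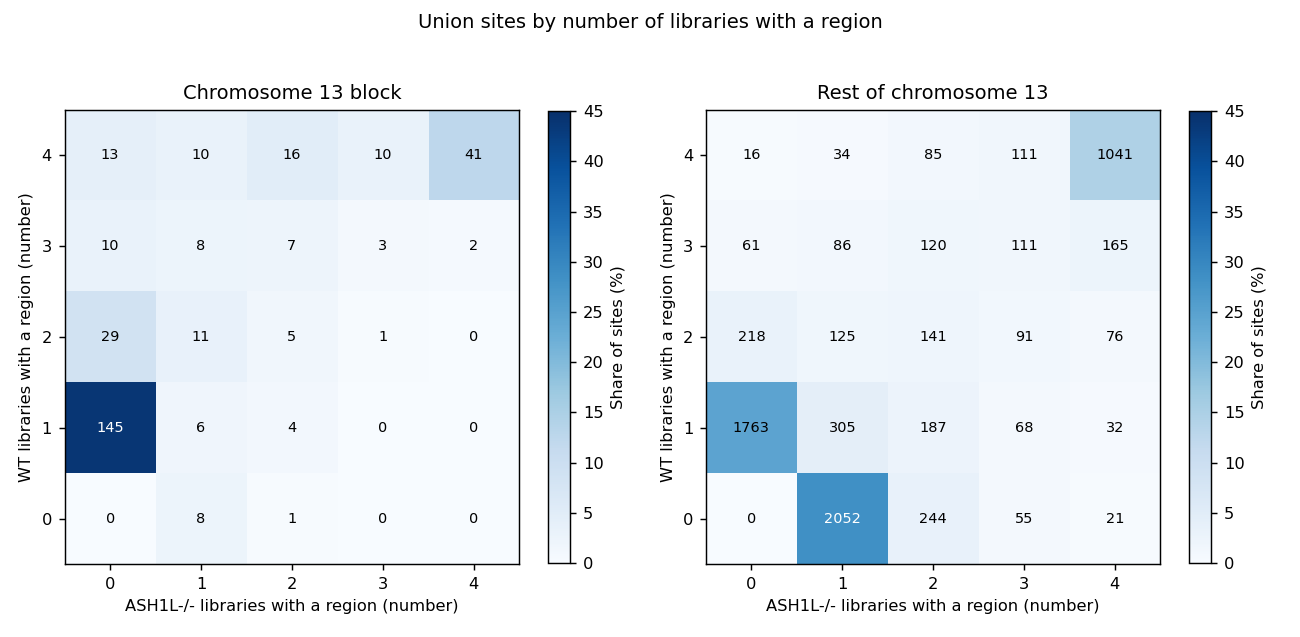
Each cell gives the number of sites with a region in that many WT (vertical axis) and ASH1L-/- (horizontal axis) libraries, and its colour gives the share of sites in percent. In the block 259 of the 330 sites lie above the diagonal, with 145 in a single WT library and 8 in a single ASH1L-/- library, whereas on the rest of chromosome 13 these numbers were 1763 and 2052.

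The sites of the all-WT pattern were weak to moderate. Their pileups at the summit ran from 5 to 28 reads, and their mean percentile of fold enrichment within the WT lists ranged from 34.9 to 64.8. Their median width was 499 bp, between the 340 bp of all block sites and the 730 bp of sites in all 8 libraries. The highest-ranking one, in an intron of CLYBL 7865 bp from its nearest start site (site 99614455 to 99615022), had WT pileups of 9 and 15 reads without UV and 17 and 28 after UV. CLYBL encodes a mitochondrial enzyme of the citramalyl-CoA pathway. A second intronic site of CLYBL (99626578 to 99627166) had 13 and 9 reads without UV and 10 and 23 after UV. The site 7555 bp from the ZIC2 start site (99992955 to 99993451) had 11, 12, 15 and 25 reads in the same order. The intergenic sites nearest to SLC15A1 (98673036 to 98673504) and IPO5 (98033175 to 98033701) had 11 to 23 and 10 to 21 reads. None of the 5 had a region in any ASH1L-/- list. Of the 13 sites, 3 lay within 1 kb of a start site (DZIP1, HS6ST3 and FARP1), 5 in gene bodies and 5 between genes. They were spread over 8 of the 10 bins of 500 kb, with no more than 3 in a bin. Most, 3, were between 99.5 and 100 Mb, and the bins at 96.5 and 97.5 Mb had none.

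The excess was spread over the bins of the block. Each of the 10 bins of 500 kb had more WT than ASH1L-/- regions relative to list length, by 1.72-fold in the bin at 97.0 Mb to 4.40-fold in the bin at 96.0 Mb, and in 9 of them all 4 WT counts were above all 4 ASH1L-/- counts. Bins of 500 kb outside the block were not counted, but the adjoining 5 Mb windows had 2.11-fold and 2.06-fold more WT regions. At 97.0 Mb, the bin with most sites, WT libraries had 31 to 35 regions and ASH1L-/- libraries 13 to 26. At 96.0 Mb they had 5 to 10 and 1 to 3. Leaving out any 1 of the bins gave a difference in the log2 share of 1.18 to 1.34, beside 1.24 with all of them.

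Sites with a region in every library allowed the pileup itself to be compared. The relative pileup is the log2 of the summit pileup minus the median of the same library over the 60324 sites found in all 8 libraries. Over the 41 block sites its median was 0.05 and 0.00 in unchallenged WT libraries and 0.10 and 0.33 after UV. In ASH1L-/- libraries it was −0.65 and −0.87 without UV and −0.73 and −0.65 after UV. The 4 WT libraries were again above the 4 ASH1L-/- libraries, by more than the spread within each genotype. The mean was higher in WT at 40 of the 41 sites, beside 29 of 29 in the 5 Mb before the block and 33 of 33 after. The median difference in the block was 0.74, or 1.67-fold, with quartiles of 0.56 and 1.04. All 4 WT values were above all 4 ASH1L-/- values at 21 sites (51.2%), beside 5.62% of all 60324 sites and 11.1% on the rest of chromosome 13. In the 5 Mb after the block it was 19 of 33 sites (57.6%), above the share of the block, and in the 5 Mb before it 6 of 29 (20.7%). The reverse occurred at 0 block sites, beside 4.51% of all. Sites that had dropped out of a list do not enter these values.

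Promoters and other sites shifted alike in size. The median difference was 0.743 at the 12 sites within 1 kb of a start site and 0.742 at the 29 other sites. The smallest difference in favour of WT among promoter sites was 0.26, at DOCK9. The largest of all, 1.64 or 3.11-fold, was at an intergenic site (97627503 to 97628009), with pileups of 28, 23, 46 and 90 reads in WT and 23, 7, 10 and 17 in ASH1L-/- cells. The exception was an intergenic site 26776 bp from an MBNL2 start site (97194285 to 97194949), named here because it stood out after its values were seen. Its relative pileup was −1.27, −0.40, −1.34 and −2.53 in WT and 0.24, −0.29, −1.50 and −1.61 in ASH1L-/- cells, which gave a difference of −0.60. Genotypes overlapped there, and all 4 unchallenged libraries were above all 4 UV libraries.

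**Figure D3:**
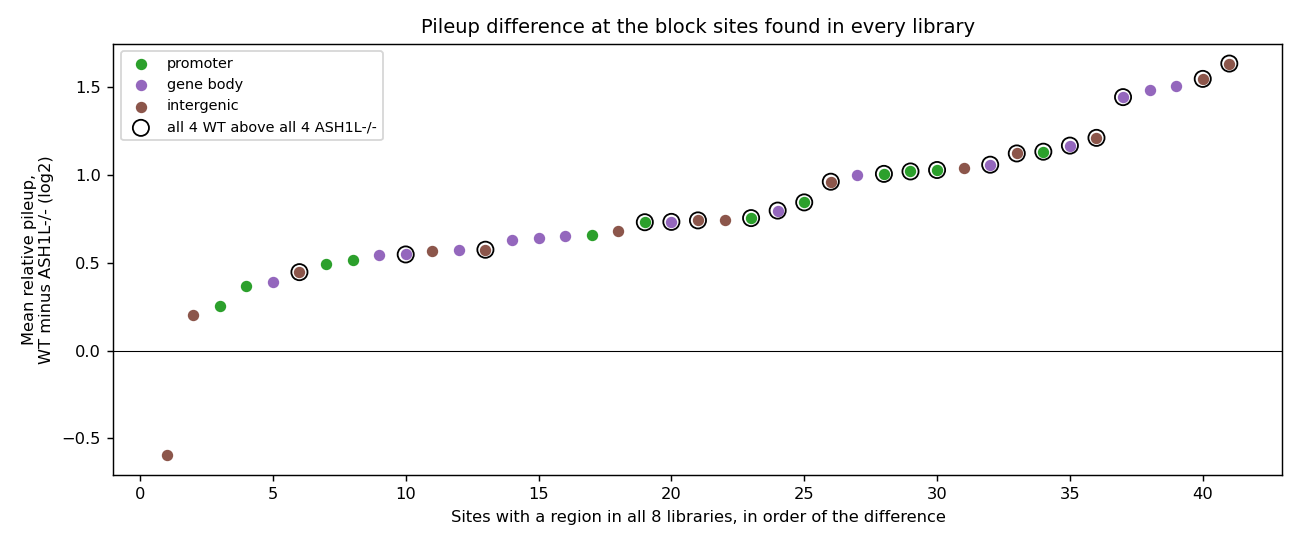
Each point is 1 of the 41 block sites found in all 8 libraries, ordered along the horizontal axis, and the vertical axis gives the mean relative pileup in WT minus ASH1L-/- cells (log2). 40 points lie above 0, promoter, gene-body and intergenic sites are mixed along the order, and the circles mark the 21 sites without overlap.

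Of the 22 genes, 11 had a region within 1 kb of a start site in all 8 libraries. These were ABCC4, DZIP1, DNAJC3, UGGT2, MBNL2, RAP2A, IPO5, FARP1, DOCK9, UBAC2 and TM9SF2. At the strongest promoter region of each gene the WT mean was above the ASH1L-/- mean in all 11, and the genotypes did not overlap in 6. The share of promoters elsewhere was not computed. Among sites of any kind found in all 8 libraries, WT was higher without overlap at 5.62% over the genome. In the 5 Mb before and after the block it was 20.7% and 57.6%. RAP2A, whose product is a Ras-like GTPase, had the most reads. Its relative pileup was 3.04 and 3.04 without UV and 2.65 and 2.22 after UV in WT cells, and 1.72, 1.98, 1.65 and 1.51 in ASH1L-/- cells in the same order. The means of 2.74 ± 0.39 and 1.72 ± 0.20 (SD, n = 4 each) differed by 1.02, or 2.03-fold. IPO5, an importin that carries proteins into the nucleus, had the widest difference of 1.13, with 0.46, 0.28, 1.42 and 0.99 in WT and −0.46, −1.0, 0.27 and −0.20 in ASH1L-/- cells. TM9SF2, a transmembrane protein of endosomes and the Golgi, had 1.46, 1.18, 1.34 and 0.70 in WT and 0.10, 0.24, 0.30 and 0.03 in ASH1L-/- cells. At all 3 promoters the lowest WT value was above the highest ASH1L-/- value.

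The other promoters of this group showed smaller or overlapping differences. MBNL2, which regulates alternative splicing, averaged 0.45 ± 0.42 in WT and −0.28 ± 0.11 in ASH1L-/- cells (SD, n = 4 each), without overlap. DNAJC3, a chaperone and inhibitor of the kinase PERK in the unfolded protein response, averaged 0.59 ± 0.36 and 0.07 ± 0.27 (SD, n = 4 each), and its WT and ASH1L-/- values overlapped. The same held for DOCK9, an exchange factor of the GTPase CDC42, at 0.80 ± 0.86 and 0.06 ± 0.32 (SD, n = 4 each), where the lowest WT library was at −0.47. FARP1 had the smallest difference, 0.37.

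**Figure D4:**
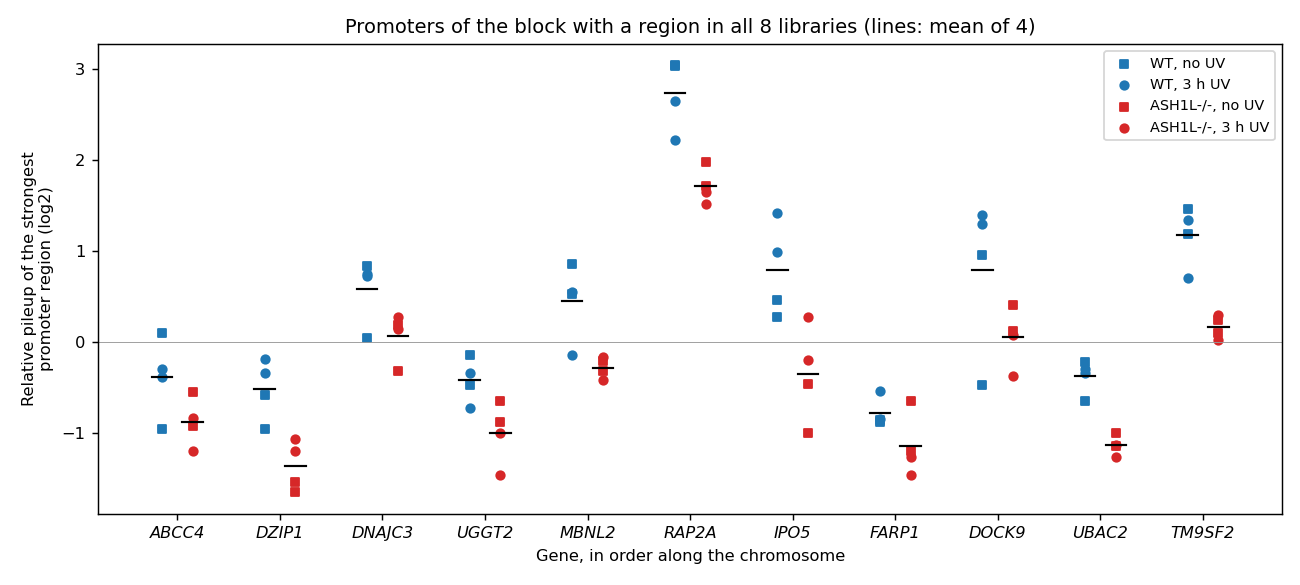
Relative pileup (log2, vertical axis) of the strongest promoter region of the 11 genes with a promoter region in every list, with 1 symbol per library, squares for no UV, circles for 3 h after UV, blue for WT, red for ASH1L-/- and black lines for the mean of 4. The WT mean is higher at each gene, by 0.37 at FARP1 to 1.13 at IPO5, and RAP2A stands above the others in both genotypes.

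Promoters that were not in every list were missing from ASH1L-/- libraries more often than from WT libraries in each of the 6 genes concerned. HS6ST3, which adds sulfate groups to heparan sulfate chains, had a promoter region in 4 WT and 0 ASH1L-/- libraries, with WT pileups of 6 and 13 reads without UV and 9 and 28 after UV. ZIC2, a zinc-finger transcription factor of brain development, had one in 3 WT libraries with 6, 13 and 20 reads and in 0 ASH1L-/- libraries. OXGR1, the receptor for 2-oxoglutarate, and GPR183, the receptor that guides B cells by oxysterols, each had one in 3 WT libraries and 1 ASH1L-/- library. The promoter of STK24, a kinase of the Ste20 family, was found in 4 WT and 2 ASH1L-/- libraries, and that of CLYBL in 4 and 3. At CLYBL the WT pileups of 23, 14, 31 and 60 reads stood beside 7, 11 and 10 in the ASH1L-/- libraries that had the region. CLDN10, RNF113B, SLC15A1, GPR18 and ZIC5 had no promoter region in any list. A region within 1 kb was counted for every annotated start site, and FARP1 and STK24 shared a site. The promoters of DZIP1 and FARP1 therefore include both a site of all 8 libraries and a site of the all-WT pattern.

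The rank of block regions within each list was taken over sets of unequal size, 162 to 205 regions in WT and 55 to 112 in ASH1L-/- cells, so it does not compare the same sites. The median percentile of fold enrichment in the block minus that on the rest of chromosome 13 was 2.35 and −5.59 without UV and −5.01 and 0 after UV in WT, and 15.05, 4.48, −3.96 and 2.61 in ASH1L-/- cells. The means, −2.06 ± 3.87 and 4.54 ± 7.88 percentile points (SD, n = 4 each), differed by −6.61, and the values overlapped. The difference was −2.03 at a q-value under 0.05 and 0.24 at 0.01 or below. The highest value was from the ASH1L-/- library with the fewest block regions. The background of the regions was compared as well. For a region, the peak caller's background is the larger of the genome-wide mean and the reads in a 10 kb window that contains it. It was at the genome-wide floor for 67.3%, 74.2%, 64.3% and 59.0% of block regions in WT and for 90.9%, 81.0%, 69.9% and 74.1% in ASH1L-/- cells. The ranges overlapped between the highest WT and the lowest ASH1L-/- libraries, and the sets of regions were again unequal in size. With this background in place of the summit pileup, the difference at the 41 sites relative to the rest of chromosome 13 was 0.67, beside 0.83 for the pileup.

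The excess did not end at the borders of the block. Along chromosome 13 the 1 Mb bins had more WT than ASH1L-/- regions, relative to list length, in an unbroken run of 34 bins from 81 Mb to the end of the chromosome, and in 24 of these all WT values were above all ASH1L-/- values. The run was extended outward from the block for as long as the WT mean was higher, so this excess is part of its definition. Before the run, 21 of 63 bins had more WT regions, and all WT values were above all ASH1L-/- values only at 32, 59 and 76 Mb. The ratios of WT to ASH1L-/- regions were close on both sides of its borders, with 2.291 for the block, 2.11 for the 5 Mb before it and 2.06 for the 5 Mb after it. The median relative pileup was higher in all 4 WT than in all 4 ASH1L-/- libraries in each of the 6 windows of 5 Mb from 85 Mb onwards. The same held for 17.97% of the 562 windows of 5 Mb in the genome that contained at least 20 such sites. The differences were 0.81 at 85 Mb (12 sites), 0.62 at 90 Mb (29 sites), 0.85 in the block, 0.82 at 100 Mb (33 sites), 0.61 at 105 Mb (53 sites) and 0.71 at 110 Mb (141 sites). The window at 80 Mb had a difference of 0.05 and its libraries overlapped. Of its 14 sites, 11 lay in the bin at 80 Mb, before the run, with medians of −0.36 in WT and 0.23 in ASH1L-/- cells. The bins at 81, 83 and 84 Mb had 1 site each, and WT was higher there. In 6 of the windows nearer to the centromere all 4 ASH1L-/- libraries were above all 4 WT libraries, with the largest difference, −0.48, at 25 Mb. Over the run without the block, the median difference at 271 sites was 0.68, beside 0.74 in the block. Of those 562 windows, the block had the largest WT excess and the window after it the next, and 5 of the 6 largest were on chromosome 13. The remainder of the run had 12 sites of the all-WT pattern among 2187, but the block was chosen for its excess of them.

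**Figure D5:**
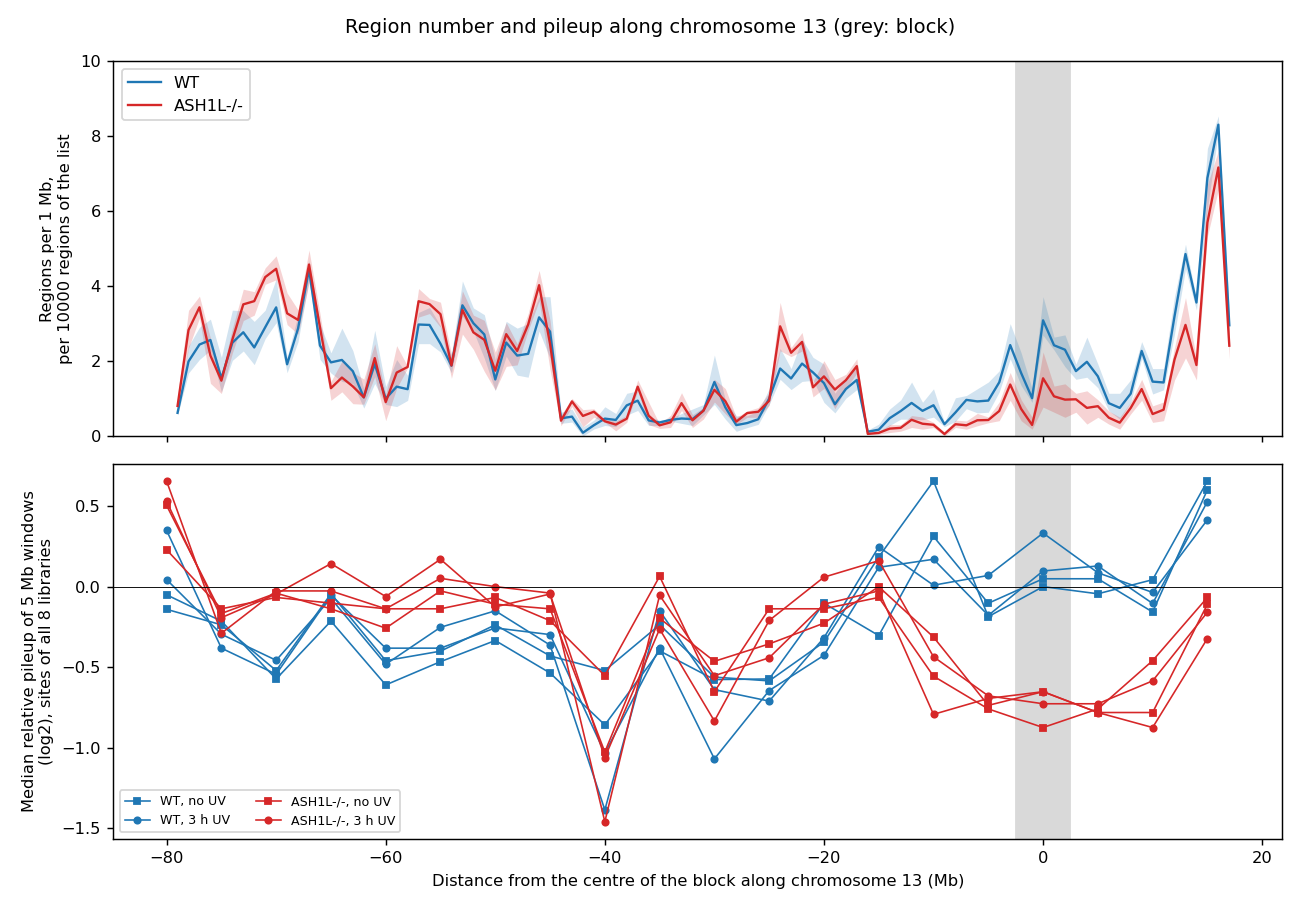
The upper panel gives regions per 1 Mb per 10000 regions of the list (lines, mean of 4 libraries; bands, lowest to highest) and the lower panel the median relative pileup (log2) of 5 Mb windows for each library, both against the distance from the block centre in Mb. The grey band is the block, and WT (blue) lies above ASH1L-/- (red) in it and in the windows to its right up to the chromosome end.

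DNA content was not measured in these libraries, and the part of copy number in the difference was not tested. WT was higher on average at promoters and elsewhere, in each 500 kb bin and in the windows from 85 Mb to the end of the chromosome. The sign was reversed at 1 of 41 sites. In 6 windows nearer to the centromere all 4 ASH1L-/- libraries were above all 4 WT libraries. Large differences in relative pileup also occurred on other chromosomes, such as −0.91 at 110 Mb of chromosome 4 and 0.68 at 65 Mb of chromosome 14.

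UV light was compared next, a contrast that the choice of the block did not use. The region lists were the same as for that choice, and 197 of the 330 sites had a region in WT libraries alone. In WT cells the share of chromosome 13 regions in the block was nearly the same without and after UV, with a log2 difference of 0.02. In ASH1L-/- cells it was 0.73 higher after UV. Both UV libraries of ASH1L-/- cells, with 103 and 112 regions, were above both unchallenged ones, with 55 and 63. The UV difference over both genotypes was 0.38 (exact permutation test, two-sided, p = 0.457, adjusted p = 0.629 over 4 tests, n = 4 and 4), and 4 libraries against 4 cannot give a p under 0.0286. The difference between the UV effects, WT minus ASH1L-/-, was −0.71 (exact permutation test, two-sided, p = 0.486, adjusted p = 0.629). Both tests exchange labels across genotypes, so the genotype difference of 1.24 enters the spread they are read against. With labels exchanged within a genotype only, the exact permutation p was 0.167 for the UV difference and 0.222 for the contrast, where no p under 0.0556 can be reached. The SD within groups was 0.195. The adjoining windows had a similar order, with 48 and 50 regions without UV and 64 and 69 after UV in ASH1L-/- cells before the block, and 43 and 48 against 68 and 87 after it.

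The strength and the pileup of the block did not pass the test for UV. These tests also exchange labels across genotypes. With labels exchanged within a genotype only, the exact permutation p was 0.222 for strength and 0.278 for pileup. No p under 0.0556 can be reached this way. The UV difference in the median percentile relative to the rest of chromosome 13 was −5.66 points (exact permutation test, two-sided, p = 0.286, adjusted p = 0.629), with −1.59 ± 3.54 after UV and 4.07 ± 8.50 without (SD, n = 4 each). It was −1.96 points at a q-value of 0.01 or below and −10.3 against all other autosomes. In relative pileup it was 0.10 (exact permutation test, two-sided, p = 0.629, adjusted p = 0.629), or 0.16 in WT and 0.03 in ASH1L-/- cells. At the 41 sites the UV mean was higher at 21 and lower at 20, with a median difference of 0.01 and quartiles of −0.21 and 0.33. No site had all 4 UV values above all 4 unchallenged ones, a pattern of 9.01% of all sites, and 1 site, the exception near MBNL2, had the reverse, beside 10.6% of all. Both patterns require separation across genotypes. The genotype difference in pileup makes them hard to meet in the block, so these shares do not measure its response to UV. The highest UV difference, 1.99, was at an intronic CLYBL site (99655135 to 99656438), chosen after its values were seen. Its pileups were 53 and 25 reads without UV and 190 and 283 after UV in WT, and 19 and 8 against 72 and 102 in ASH1L-/- cells. Both genotypes were higher after UV there, but the groups overlapped in relative pileup, with 0.87 in an unchallenged WT library and 0.58 in a UV library of ASH1L-/- cells.

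A region in all 4 UV and in no unchallenged libraries was found at 4 block sites (1.21%), beside 0.686% of all sites and 66 of 7208 (0.916%) on the rest of chromosome 13. In the adjoining 5 Mb windows it was 3 of 228 sites (1.32%) before the block and 1 of 209 (0.478%) after it. The block count was 2 where regions had to cover 50% of the site, and 7 without replicate 2 of unchallenged WT cells or without replicate 1 of ASH1L-/- cells after UV. The leading one was in an intron of CLYBL (99834148 to 99834633), with 19 and 18 reads in WT and 11 and 13 in ASH1L-/- cells. The next was at the promoter of DOCK9 (99086004 to 99086499), with 12 and 25 reads in WT and 13 and 11 in ASH1L-/- cells. An intergenic site 100729 bp from an MBNL2 start site (97120351 to 97120829) had 20 and 30 against 8 and 13 reads. The remaining one was in an intron of UGGT2, a glucosyltransferase of glycoprotein folding, with 9 and 13 reads against 11 and 9. The opposite pattern, all unchallenged and no UV libraries, was found at 0 block sites, beside 0.0969% of all.

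The labels and lists were checked at fixed promoters. The bone and mesenchymal genes RUNX2, VIM, COL1A1 and FN1 had a promoter region in all 8 lists, COL1A2 in 7 and TWIST1 in 2. Of the markers of other cell types, PTPRC and ALB each had one in 1 list, but the epithelial genes EPCAM and CDH1 had one in all 8, so an accessible promoter did not by itself mark the cell type. The ASH1L promoter was accessible in all 8 lists, which does not check the knockout, because the deletions were made in exons.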

How the data were processed

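ATAC-seq peak lists of 8 U2OS libraries were analysed, 2 in each of 4 groups, which the sample titles give. The authors trimmed reads (cutadapt 1.9.1), aligned them to hg38 (Bowtie2 2.4.5), filtered them and called peaks in each library separately with MACS2 2.2.7.1, and did not pool replicates. For each summit the deposited lists gave a fold enrichment, which is a ratio of pileup to local background, and a −log10 p-value and −log10 q-value, none normalised between libraries. Their columns of scores were not used.

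A region is a distinct interval of a list. Because fold enrichment is (pileup + 1)/(background + 1) and the p-value is a Poisson tail, both pileup and background were solved for every record (100% solved), and the solver was tested on simulated data. The lowest background of a list is its genome-wide mean pileup, 1.39 to 5.87, and was taken as relative depth. Pileups are whole reads, so low values carry counting error. Relative pileup was centred on the library median over 60324 sites. Genes and start sites were from GENCODE release 44, promoters being within 1 kb, and sequences from the hg38 genome. A marker gene fixed for the check of the cell type is not reported here.

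The members and lists were chosen with earlier results of these data known. Genes were named where a promoter lacked a region in a library, where they held most all-WT sites or where their role was sure. Sites were named by mean percentile, as the first 5 of the all-WT pattern and the first 3 of other classes. UV contrasts were tested by exact permutation over 70 assignments with Benjamini-Hochberg adjustment over 4 tests (scipy 1.17.1). Replicate numbers were checked for pairing by the correlation of replicate differences over 60324 sites, which ran from −0.223 to 0.190, so they were not treated as pairs. Alternatives were q-value limits of 0.05 and 0.01, the top quartile of each list, shifted borders, other references, 50% coverage of a site, the background in place of the pileup and each library left out.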

Additional observations from a re-analysis of the deposited data

How the results depend on the processing

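Of 72 values under alternatives other than leaving out a library, 60 had the same direction and no change of call, or stayed within the spread between replicates, 9 moved further and 3 reversed. Among the 60, some changed in size. The genotype difference in strength was −2.03 at a q-value under 0.05, the UV difference in strength was −1.96 at 0.01 or below and −10.3 against all other autosomes, and the UV by genotype contrast was −0.24 in the top quartile. The genotype difference in strength was 0.24 percentile points at a q-value of 0.01 or below. In the top quartile of each list the genotype difference was 0.99 in log2 share and −0.99 points in strength, and the UV differences turned to −0.019 in share and 1.34 points in strength. Relative to chromosome 13 outside the run of bins, an alternative chosen after seeing the data, the genotype difference was 1.49 in share and 1.10 in pileup, and with the local background in place of the pileup it was 0.67. Sites of the all-WT pattern numbered 7 at a q-value under 0.05, 8 at 0.01 or below and 2 where regions had to cover 50% of the site, and sites gained after UV numbered 2 under that coverage. The cause of these changes was not tested.

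Leaving out each library in turn gave 13 to 22 sites of the all-WT pattern (22 without WT no-UV replicate 1, 20 without ASH1L-/- UV replicate 2), 0 to 0 of the reverse, 4 to 7 gained after UV (7 without WT no-UV replicate 2 or ASH1L-/- UV replicate 1) and 0 to 1 lost (1 without ASH1L-/- no-UV replicate 2). A pattern over fewer libraries is met more easily. The genotype difference ran from 1.11 to 1.37 in share, 0.77 to 0.89 in pileup and −9.25 to −3.96 in strength. The UV difference ran from 0.25 to 0.50 in share, 0.04 to 0.16 in pileup and −8.31 to −3.02 in strength, and the UV by genotype contrast from −0.96 to −0.45. With the replicate block, the exact permutation p was 0.25 for the UV difference in share (0.38) and 0.375 for the contrast with genotype (−0.71), for strength (−5.66) and for pileup (0.10), so no call changed, but 16 assignments cannot give a p under 0.125. Pileups of about 10 reads limit what can be said of single sites of the all-WT pattern, since an absent region is a pileup below the calling limit and not 0 reads.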
